A study of Drosophila melanogaster with 54 samples.

Results

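The genes elav, Syt1, para, Gad1, brp, nSyb, ChAT and Rdl are 8 of the 13945 protein-coding genes annotated on the 6 chromosome arms used here, and all 8 encode proteins of differentiated neurons. They were chosen because earlier inspection of these bound-region lists had shown poor binding of the neuronal genes as a class, so every count of binding at them is a description and carries no test. A gene was called reached by a protein where at least 1 bp of a region in that protein's list lay within 1 kb of the gene body, and a distance of 5 kb was used separately.

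The data are ChIP-seq lists from Kc167 cells, an embryonic Drosophila line with haemocyte-like features, which expresses Exd in the cytoplasm and lacks Hth. In 8 groups a GFP-tagged Hox protein (from the head to the abdomen Lab, Pb, Dfd, Scr and Antp, and then Ubx, Abd-A and Abd-B) was made together with Hth from 1 bicistronic plasmid, in 8 further groups the Hox protein was made without Hth, and the last 2 groups held GFP-tagged Exd made with Hth and GFP-tagged Hth by itself. All groups were transiently transfected, carried the copper-inducible metallothionein promoter, were treated with 1 mM copper sulphate for 4 h, were fixed in 1% formaldehyde for 10 min and were then sorted for a common range of GFP before ChIP with an antibody against GFP, so the tagged proteins came from plasmids in cells that are not neurons. Each of the 18 groups had 2 ChIP libraries and 1 input library by the labels, 54 samples in all. Abd-A+Hth and Abd-B+Hth, and likewise Abd-A and Abd-B, have identical input read totals in the supplement of the study, so each pair may have used a single input. The authors' lists give 1 set of regions per group, found in both replicates, without heights, scores or read numbers, so no value below has a replicate error and the lists do not give the depth behind a missing region. Mapped reads in the supplement differed between conditions. Both Dfd+Hth libraries had more than both Dfd libraries, and both Antp+Hth libraries had fewer than both Antp libraries. No count below was adjusted for depth. A gene without a region was not detected at the authors' threshold, which does not show that it was free of the protein.

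Hox proteins are homeodomain factors that set segment identity, and in the nervous system they act in neuroblasts and in neurons. Hth is a TALE homeodomain protein that carries Exd into the nucleus, and Exd binds DNA next to a Hox protein on composite sites. The 8 genes act late in the neuron: elav encodes an RNA-binding protein used as a pan-neuronal marker, nSyb and Syt1 the vesicle SNARE and the calcium sensor of transmitter release, and brp the scaffold of the active zone. The gene para encodes the voltage-gated sodium channel, ChAT the enzyme that makes acetylcholine, Gad1 the enzyme that makes GABA, and Rdl a GABA-gated chloride channel subunit.

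Of the 11 sites at these genes found in at least 2 lists, 8 are shown first, because the contrast between them carries the result: the elav and Syt1 sites were bound by Hox proteins with and without Hth, and the 3 ChAT sites and the second para site only in lists with Hth. A site is a merged run of overlapping regions over all 18 lists at q 0.01. Each line gives 200 bp at the centre of the stretch covered by most lists, written 5′ to 3′ on the strand of the gene from the Release 6 genome (dm6), with untranslated bases left out, which shortened the Gad1 stretch to 70 bp. Capitals mark matches, on either strand, to the Exd-Hox octamers TGATTGAT, TGATTAAT and TGATTTAT, to the Hox cores TTAATTA and TTAATGA, to the Abd-B-type cores TTTATTA or TTTATTG or TTTATGA or TTTATGG, or to the Hth core TGACAG. The second elav site, in 6 lists, lies in the 3′ untranslated region and is not shown, and neither are the 2 such sites at brp.
elav, intron, chrX:522548-522747, minus strand: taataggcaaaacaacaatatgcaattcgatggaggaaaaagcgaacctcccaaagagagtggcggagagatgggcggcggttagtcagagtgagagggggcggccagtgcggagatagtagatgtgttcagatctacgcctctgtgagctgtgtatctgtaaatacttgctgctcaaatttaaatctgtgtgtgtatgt
Syt1, upstream, chr2L:2802303-2802502, minus strand: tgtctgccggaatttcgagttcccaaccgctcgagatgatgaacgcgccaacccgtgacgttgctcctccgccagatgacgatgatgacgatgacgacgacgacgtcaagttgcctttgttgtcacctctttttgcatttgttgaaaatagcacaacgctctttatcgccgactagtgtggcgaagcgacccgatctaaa
para, intron, chrX:16525659-16525858, minus strand: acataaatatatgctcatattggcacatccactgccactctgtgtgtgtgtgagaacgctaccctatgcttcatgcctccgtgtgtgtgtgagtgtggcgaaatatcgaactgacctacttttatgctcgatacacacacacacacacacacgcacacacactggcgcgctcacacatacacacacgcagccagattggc
para, intron, chrX:16476826-16477025, minus strand: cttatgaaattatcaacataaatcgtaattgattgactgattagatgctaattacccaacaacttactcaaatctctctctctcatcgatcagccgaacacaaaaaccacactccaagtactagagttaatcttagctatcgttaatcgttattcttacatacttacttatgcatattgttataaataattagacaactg
Gad1, 3′ side, chr3L:4073955-4074024, minus strand: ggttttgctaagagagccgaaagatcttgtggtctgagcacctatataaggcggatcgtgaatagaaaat
ChAT, intron, chr3R:18723680-18723879, plus strand: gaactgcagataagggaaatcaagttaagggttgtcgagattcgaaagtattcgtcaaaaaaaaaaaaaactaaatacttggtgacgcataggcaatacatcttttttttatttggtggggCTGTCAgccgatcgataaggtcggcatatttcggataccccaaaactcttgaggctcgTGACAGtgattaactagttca
ChAT, intron, chr3R:18720693-18720892, plus strand: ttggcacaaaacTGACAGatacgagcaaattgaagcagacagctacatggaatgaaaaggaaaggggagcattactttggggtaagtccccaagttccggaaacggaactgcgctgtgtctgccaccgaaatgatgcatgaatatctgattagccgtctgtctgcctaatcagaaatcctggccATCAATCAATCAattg
ChAT, intron, chr3R:18727302-18727501, plus strand: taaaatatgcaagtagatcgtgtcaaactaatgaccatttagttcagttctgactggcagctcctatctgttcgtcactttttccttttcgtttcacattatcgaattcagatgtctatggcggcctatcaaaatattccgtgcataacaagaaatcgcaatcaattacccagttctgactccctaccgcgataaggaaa
Of these 8 stretches only 2, both in ChAT, held a match. The ChAT stretch shared by most lists held 2 Hth cores, and the second held 1 Hth core and 2 overlapping TGATTGAT octamers. Over the 200 bp windows of all 16214 sites of the genome, an Hth core stood in 12.6%, at least 2 Hth cores in 1.26%, an Exd-Hox octamer in 9.0%, and at least 2 TGATTGAT octamers in 0.296%. The full 200 bp window of the Gad1 site held 1 Abd-B-type core, outside the 70 bp shown. A match is a run of letters and was not tested for binding, and the lack of one says only that these letters are not in the stretch shown.

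With Hth, 7 of the 8 genes had a region of at least 1 Hox protein within 1 kb (61.1% of all protein-coding genes had one), all but nSyb. Without Hth, 5 of the 8 had one (56.5% of all genes): elav, Syt1, para, Gad1 and brp. ChAT and Rdl had Hox regions only in lists with Hth, a pattern held by 869 genes (6.23%) of the genome. Counted as pairs of a gene and a Hox protein, 25 of 64 pairs were bound with Hth and 17 of 64 without it, of which 13 were bound in both. The pairs bound only with Hth numbered 12 and the pairs bound only without it 4. At Syt1 the pairs of Lab (only with Hth) and of Scr and Abd-B (only without) turned on the 1 kb limit. Each of these 3 proteins had overlapping regions upstream of Syt1 in both conditions. Over all protein-coding genes the shares of pairs were close together, 32.4% with Hth and 31.3% without. There 5.11% were bound only with Hth and 4.05% only without. Among genes of the 2 longest deciles of length, where all 8 genes lie, the shares were 57.9% with Hth and 56.3% without. The 8 genes were below both, at 39.1% and 26.6%. Pairs bound only with Hth made up 18.8% at the 8 genes and 6.13% among genes of those deciles. Pairs bound only without it made up 6.25% and 4.57%. In regions, the 8 genes held 38 of the Hox lists with Hth and 18 of the Hox lists without, whereas all 8 lists with Hth were together 11.6% larger than those without, at 53231 and 47678 regions. Because the genes were chosen on these lists, the difference between 25 and 17 pairs was not tested. Leaving elav out, 18 of 56 pairs were bound with Hth and 9 of 56 without.

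**Figure D1:**
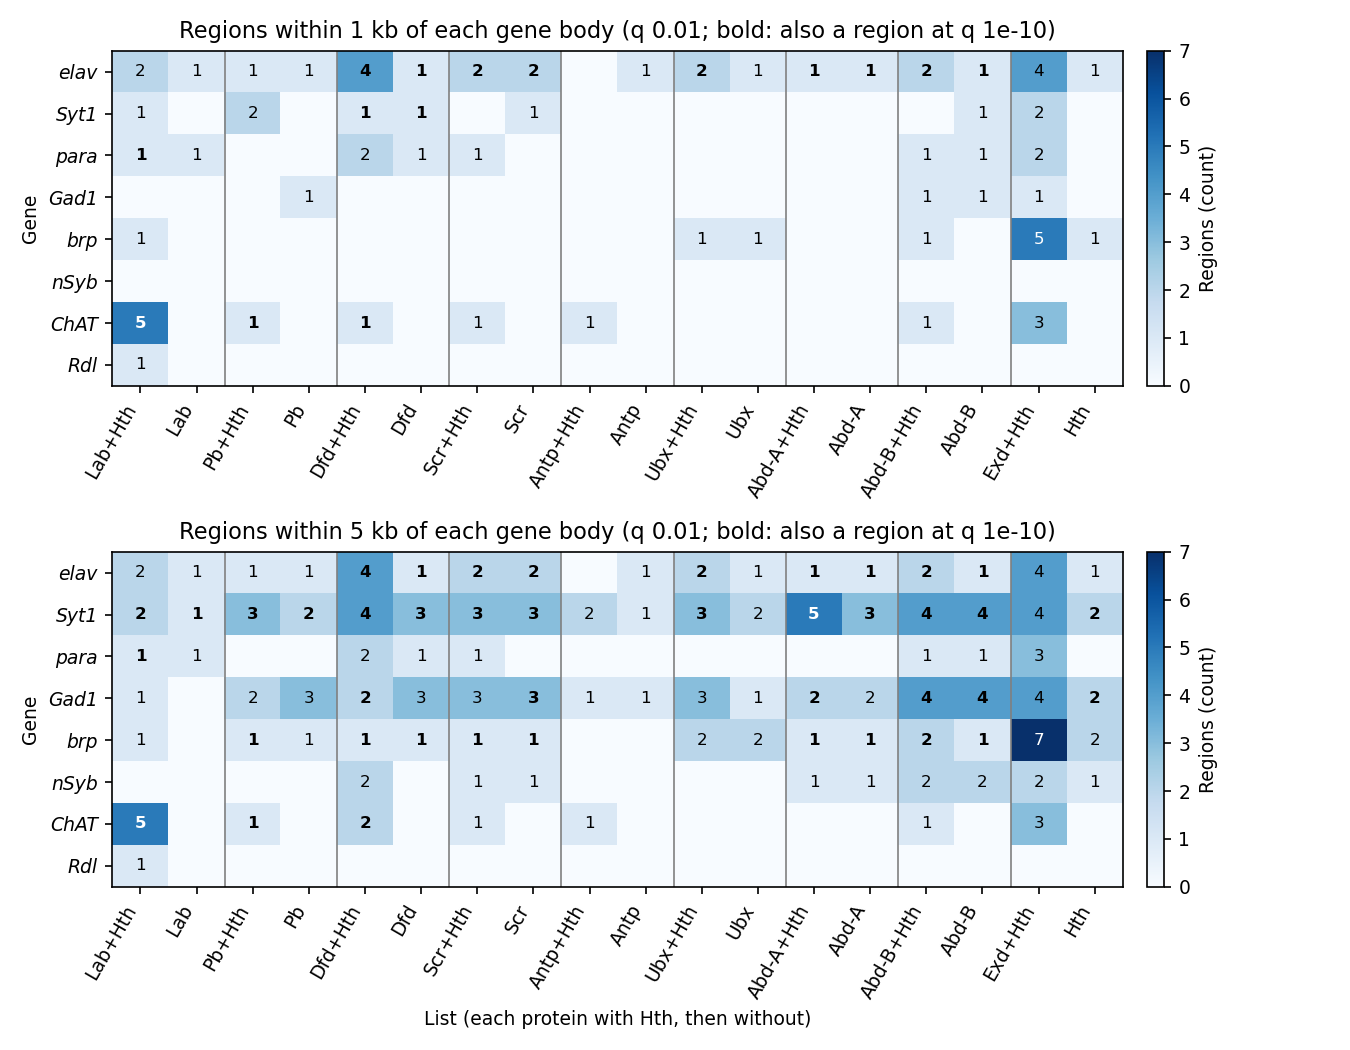
Number of regions (printed and shaded) of each of the 18 q 0.01 lists within 1 kb (top) and within 5 kb (bottom) of the 8 genes, with each protein's list with Hth left of its list without, and bold where the same list also had a region at q 1e-10 (Exd+Hth at q 1e-10 was not analysed here). At 1 kb the elav row is filled in all lists but Antp+Hth, the nSyb row is empty, and the ChAT row is filled only in lists with Hth, with 5 regions for Lab+Hth.

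Gene length matters for such counts, since a long gene gives more room for a region. The 8 genes are long: in deciles of length, numbered to 10 for the longest protein-coding genes, 6 lie in decile 10 and nSyb and elav in decile 9. Lengths ran from 7405 bp for nSyb to 78070 bp for para. The genes were reached by a median of 6.5 of the 18 lists, against a median of 3 lists over all protein-coding genes, so they were not poorly bound beside the whole genome. Beside genes of their own length 7 of the 8 were below the median, which was 13 lists in decile 10 and 11 in decile 9. There para was reached by 8 lists, Syt1 and ChAT by 7 each, brp by 6, Gad1 by 4 and Rdl by 1, and nSyb by 0. The exception was elav, reached by 17 lists, and the description as poorly bound does not hold for it. In decile 10, 15.9% of genes were reached by as few lists as Rdl, 26.8% by as few as Gad1 and 36.4% by as few as para. In decile 9, 13.9% were reached by no list, as nSyb was. The lists reaching a gene therefore placed 5 of the 8 genes (Syt1, para, Gad1, brp and ChAT) inside the middle range of long genes and only Rdl and nSyb below the lower quartile of their decile, which was 4 lists in decile 10 and 3 in decile 9.

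**Figure D2:**
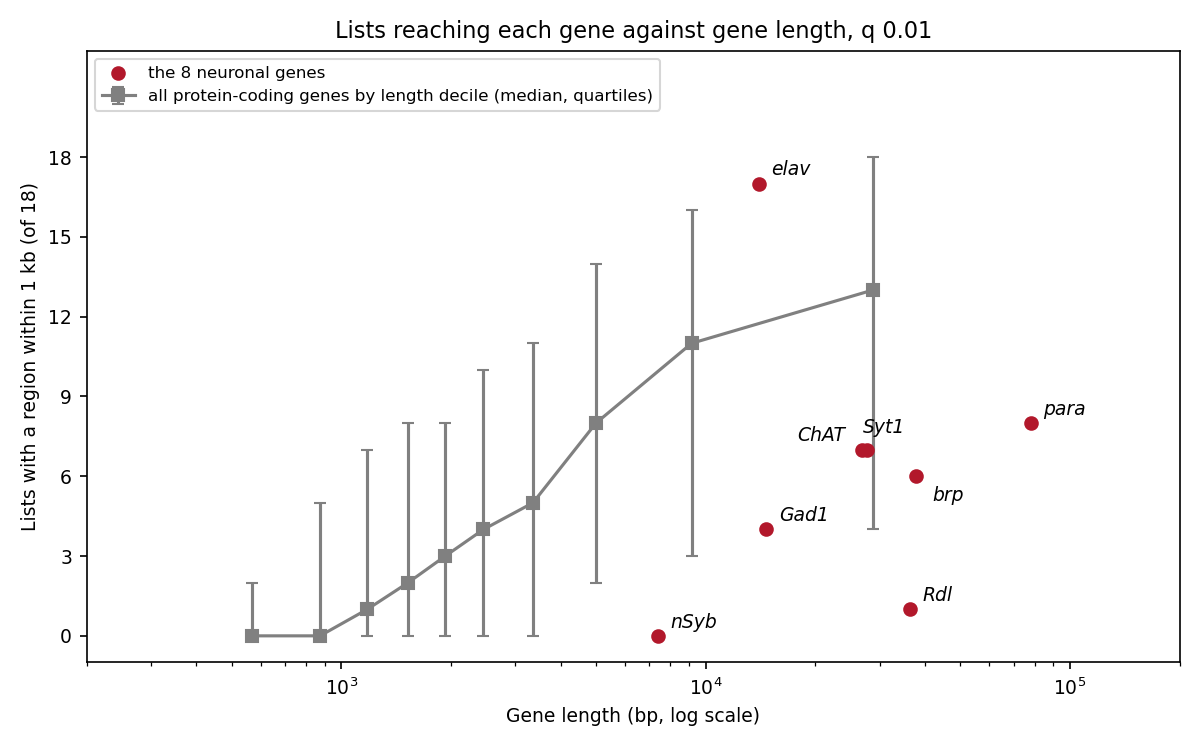
Number of lists with a region within 1 kb against gene length on a log scale, q 0.01, for the 8 genes (red points) and for all protein-coding genes in deciles of length (grey squares at the median length and median count, bars from the lower to the upper quartile). Of the red points elav, at 17 lists, stands above the grey line and the other 7 stand below it.

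The proteins differed in how many of the 8 genes they reached. Lab, the most anterior Hox protein, reached 6 genes with Hth (18.8% of all genes) and 2 without (17.1% of all genes), and 4 further genes (Syt1, brp, ChAT and Rdl) were reached only with Hth, of which Syt1 turned on the 1 kb limit. Among genes of the 2 longest deciles, Lab+Hth reached 45.8% and Lab 42.2%. Pb reached 3 genes with Hth (22.9% of all genes) and 2 without (24.6%). Dfd reached 4 with Hth (57.0%) and 3 without (42.6%), and the gene added was ChAT. Scr reached 3 with Hth (35.2%) and 2 without (39.5%). For Pb, Dfd and Scr the numbers with and without Hth differed by 1 gene, but Pb and Scr each reached only elav in both conditions. Pb reached Syt1 and ChAT only with Hth and Gad1 only without. Scr reached para and ChAT only with Hth and Syt1, which turned on the 1 kb limit, only without.

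The central proteins reached 1 or 2 of the genes in each condition, and without Hth so did Lab, Pb and Scr, with 2 each. Antp reached 1 with Hth (14.1% of all genes) and 1 without (21.5%), and they were different genes, ChAT with Hth and elav without. Ubx reached elav and brp both with Hth (30.1%) and without (23.0%). Abd-A reached only elav, with Hth (33.3%) and without (31.0%). Abd-B, the most posterior Hox protein, reached 5 genes with Hth (47.8%) and 4 without (51.3%), with para, Gad1 and elav in both, brp and ChAT only with Hth, and Syt1 only without. At Syt1 the overlapping Abd-B+Hth region began just beyond 1 kb, so that difference turned on the limit. The libraries of Ubx, Abd-A and Abd-B were sequenced on a different platform from the rest. Within the 3 proteins of that platform 8 pairs were bound with Hth and 7 without, of 24, and within the other 5 proteins 17 were bound with Hth and 10 without, of 40.

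The cofactors were far apart. Exd+Hth reached 6 of the 8 genes (51.1% of all genes), all but nSyb and Rdl, with 17 regions, more than any Hox list had at these genes. Hth by itself reached 2 (29.6% of all genes), elav and brp, with 1 region each. Among genes of the 2 longest deciles, where all 8 lie, Exd+Hth reached 76.5% and Hth 53.7%. Every gene reached by Hth was also reached by Exd+Hth. The paper reports a low background in the Exd+Hth ChIP, through which weaker peaks passed its threshold. How far this bears on the Exd+Hth counts given here was not tested.

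At 5 kb all 8 genes had a Hox region with Hth (79.8% of all genes) and 6 had one without (75.8%), all but ChAT and Rdl. Exd+Hth reached 7 genes at 5 kb (70.7% of all genes) and Hth 5 (46.9%). Pairs then numbered 45 with Hth and 35 without, of 64. Of the 11 sites added by the wider distance, 10 were nearest to a start site of another gene.

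Under the stricter threshold of q 1e-10, 4 genes kept a Hox region with Hth (44.5% of all genes): elav, Syt1, para and ChAT. Without Hth, 2 did (35.4% of all genes), elav and Syt1. Hth reached none of the 8 at q 1e-10 (15.3% of all genes). Pairs numbered 10 with Hth and 5 without, and all 5 bound without Hth were also bound with it. Gad1, brp, nSyb and Rdl had no q 1e-10 region within 1 kb in any of the 17 lists analysed.

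In all, 24 sites lay within 1 kb of the 8 genes, of which 13 came from a single list and 8 from Exd+Hth alone. In the whole genome 30.0% of sites came from a single list and 13.1% from Exd+Hth alone. Hox proteins bound 9 of the 24 sites only with Hth, 1 only without and 6 in both conditions, against 20.2%, 4.58% and 61.0% of all sites. Exd+Hth was found at 17 sites and Hth at 3, against 58.9% and 24.9% of all sites. A q 1e-10 list also held 8 of the 24 sites, against 54.8% of all sites, but Exd+Hth was not analysed at q 1e-10. Without the sites of Exd+Hth alone it was 8 of 16, against 63.0%. The median site was 468.5 bp wide and in 1 list, where the median over all sites was 667 bp and 4 lists. By the point covered by most lists, 14 sites lay in introns, 5 in 3′ untranslated regions and 5 outside the gene body. Only 7 of the 24 were nearer to a start site of the gene itself than to that of another protein-coding gene. The median GC content of the 200 bp windows was 43.2% at the 24 sites and 42.5% over all sites.

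**Figure D3:**
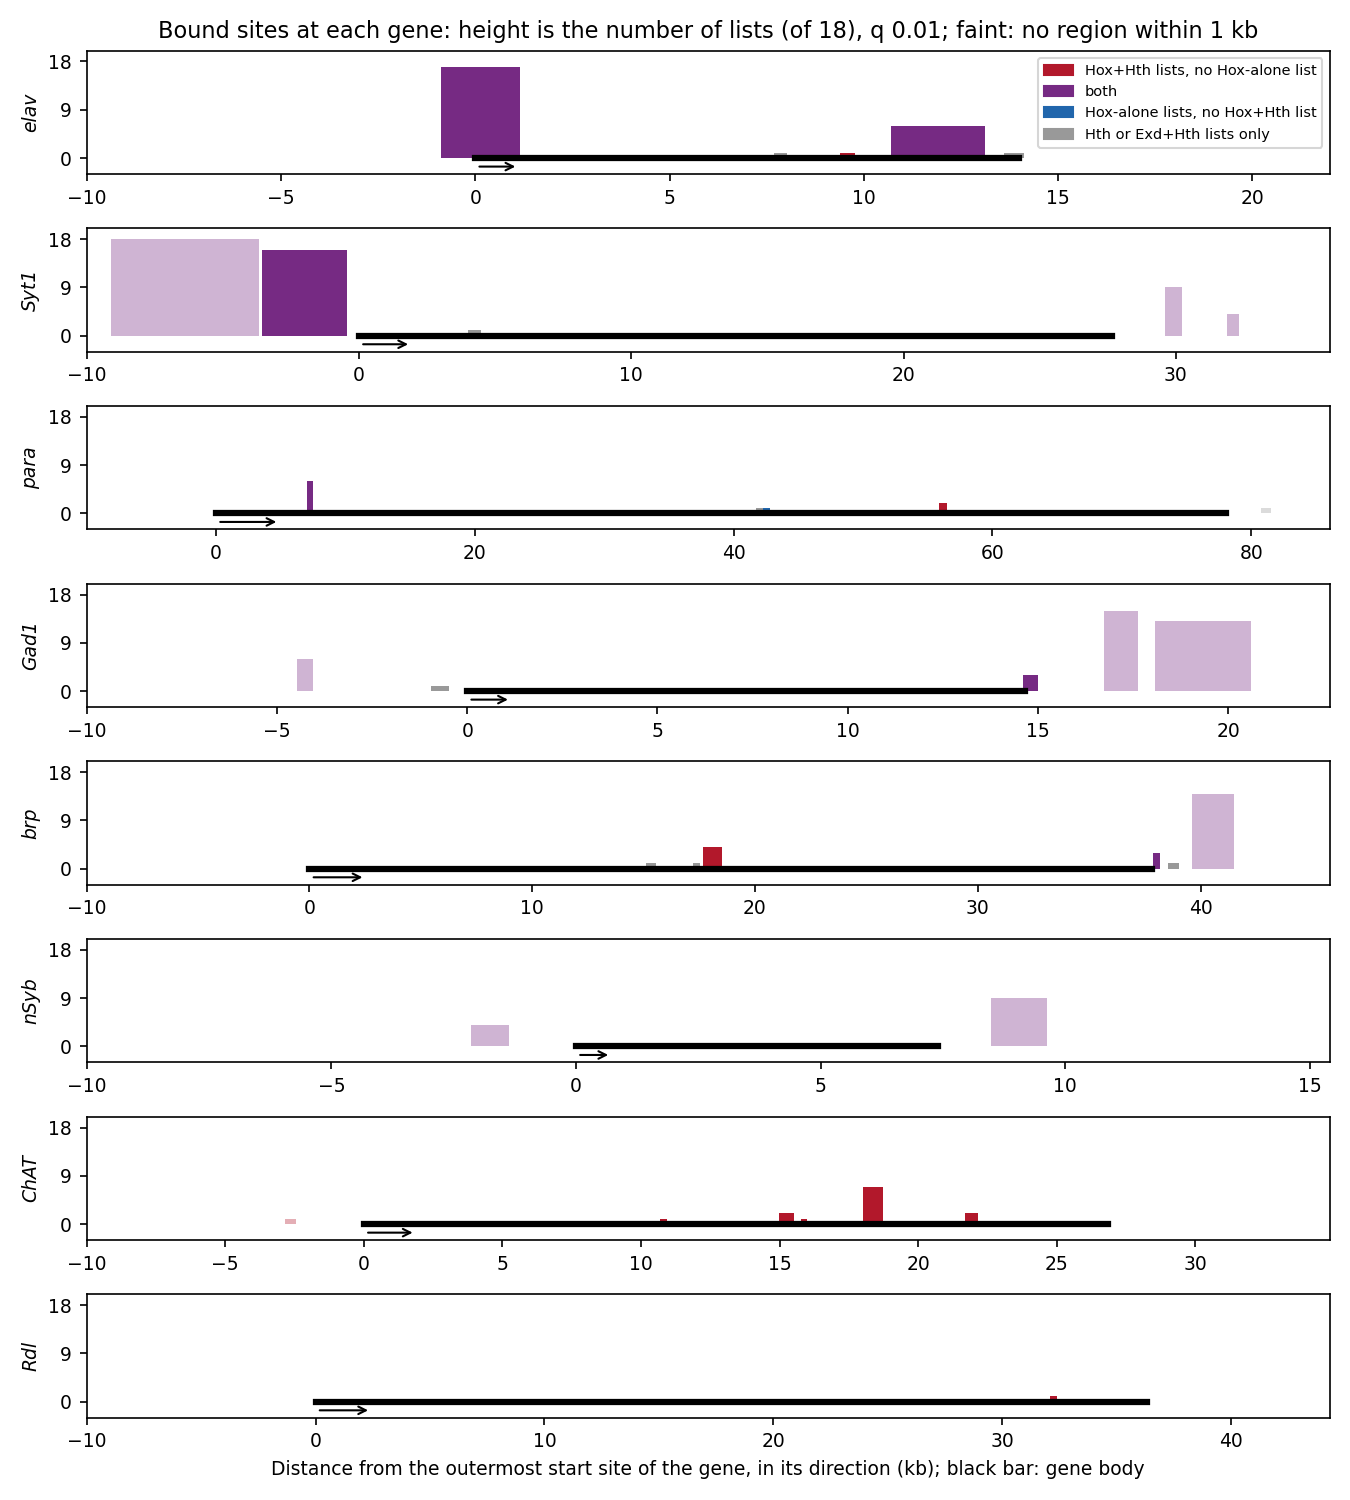
Sites at the 8 genes, q 0.01, placed by distance from the outermost start site of each gene in its own direction (kb), with the number of lists as height and the gene body as a black bar; arrows mark the direction of transcription and faint bars are sites with no region within 1 kb. The tall site at elav spans its start, those at Syt1 lie upstream, and the 5 full-colour ChAT sites lie in the body of the gene and are red, which marks Hox lists with Hth and none without.

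The site at the start of elav was in more lists than any other of the 24 sites within 1 kb. The gene elav (FBgn0260400, chrX:509235-523226, minus strand, 14.0 kb) had a site at chrX:522069-524104 that spans its start and the intron behind it. Regions of 17 lists lay there: all 8 Hox proteins without Hth, 7 with Hth, Hth and Exd+Hth. Only Antp+Hth, the smallest of the 18 lists with 2880 regions, had none. The stretch covered by all 17 lists was chrX:522479-522815, centred 579 bp inside the gene from the nearer of its annotated start sites. Region widths there differed, 381 bp for Lab+Hth and 337 bp for Lab, 1777 bp for Dfd+Hth and 1129 bp for Dfd, and 1854 bp for Abd-B+Hth and 1986 bp for Abd-B. At q 1e-10 the site was found in both conditions for Dfd, Scr, Abd-A and Abd-B, and for Ubx only with Hth. In the genome 7.76% of sites were bound by all 8 Hox proteins without Hth.

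The other elav sites lay in its long 3′ untranslated region, toward the start of arg, a gene that overlaps elav. The regions at the start of elav were centred within arg as well, so they are not particular to elav by position. The site at chrX:510098-512533 was bound by Lab+Hth, Dfd+Hth, Scr+Hth, Abd-B+Hth, Exd+Hth and, without Hth, by Scr alone. Its 2436 bp held 5 Exd-Hox octamers, 4 of them in the Lab+Hth region of 1163 bp. Of the 8 Exd-Hox octamers within 1 kb of elav, 7 lay in a site. Sites at chrX:513442-513833 (Dfd+Hth), chrX:515191-515543 (Exd+Hth) and chrX:509116-509621 (Exd+Hth, 67 bp from the start of arg) were each in 1 list. The same pattern over the 18 lists as that of elav was held by 198 other protein-coding genes, of which corn (14083 bp) and Pfrx (13846 bp) are closest to it in length.

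Syt1 (FBgn0004242, chr2L:2772327-2799979, minus strand, 27.7 kb) was bound upstream rather than within. A site of 3136 bp at chr2L:2800418-2803553 lay before its start and held regions of 16 lists, but only those that reached far enough toward the gene counted within 1 kb: Lab+Hth, Pb+Hth, Dfd+Hth and Exd+Hth, and, without Hth, Dfd, Scr and Abd-B. The stretch covered by all 16 lists was centred 2.4 kb before the start, so which lists counted depended on the width of a region. Lab without Hth had a region of 2206 bp there, chr2L:2801019-2803224, which began just beyond 1 kb, and the overlapping Lab+Hth region of 2324 bp, chr2L:2800962-2803285, began just within it. The Scr and Abd-B regions began just within 1 kb, at chr2L:2800958 and chr2L:2800974. Those of Scr+Hth and Abd-B+Hth, which overlap them, began just beyond it, at chr2L:2800985 and chr2L:2801000. The Dfd+Hth region was 3023 bp wide and the Dfd region 2408 bp. Pb+Hth added a separate region of 280 bp at chr2L:2800630-2800909. In the gene body only Exd+Hth had a region, in an intron at chr2L:2795498-2795971 and 190 bp from an internal start site. Within 5 kb all 18 lists reached Syt1, and a site at chr2L:2803647-2809072 found in all 18 lists was nearest to the start of daw. Sites of 9 and 4 lists on the other side lay 18 bp from the start of colt and 15 bp from that of Taf10.

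In para (FBgn0285944, chrX:16455027-16533096, minus strand, 78.1 kb), the longest of the 8, there were 4 sites, all intronic and none nearest to a start of para. The site at chrX:16525589-16526083 was bound by Dfd+Hth, Scr+Hth, Abd-B+Hth and Exd+Hth and, without Hth, by Dfd and Abd-B, and lay 343 bp from the start of Cnx14D, a gene inside para. A site at chrX:16476582-16477259 was found with Hth only, with regions of 662 bp for Lab+Hth and 678 bp for Dfd+Hth, and the Lab+Hth region was the only one at para in a q 1e-10 list. Lab without Hth had instead a region of 334 bp at chrX:16490364-16490697, the only site of the 24 bound by a Hox protein without Hth and by none with it. Exd+Hth had a region at chrX:16490921-16491334, near that of Lab but not overlapping it. Lab was thus found in para in both conditions, at different places. The gene body and 1 kb on either side held 22 Exd-Hox octamers, of which 0 lay in a site.

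Gad1 (FBgn0004516, chr3L:4074077-4088744, minus strand, 14.7 kb) had a site at each edge and none wholly inside. At the 3′ edge, chr3L:4073743-4074145, regions of Abd-B+Hth (324 bp), Pb (325 bp) and Abd-B (270 bp) lay across the start of the neighbour Faa, 30 bp from it. At the other edge Exd+Hth had a region at chr3L:4089231-4089696, nearer to the start of CG14989 than to that of Gad1. Within 5 kb, 17 lists reached Gad1, all but Lab, through sites nearest to the starts of wit (15 lists), CG32259 (13 lists) and CG14990 (6 lists).

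The active zone gene brp (FBgn0259246, chr2R:9503765-9541565, plus strand, 37.8 kb) was reached mostly by Exd+Hth. Exd+Hth had 5 regions within 1 kb, Lab+Hth, Ubx+Hth and Abd-B+Hth 1 each, Hth 1 and, without Hth, Ubx 1. The intronic site at chr2R:9521425-9522275 was found in Ubx+Hth (210 bp), Abd-B+Hth (382 bp), Exd+Hth (851 bp) and Hth (354 bp), and in no Hox list without Hth. It held 1 Hth core. Another site just behind the gene, chr2R:9541637-9541940, was found with Lab+Hth, Exd+Hth and, without Hth, Ubx. Ubx thus reached brp in both conditions at different sites, in the intron with Hth and behind the gene without it. Exd+Hth alone had the 3 other sites, 2 of them in the gene. Within 5 kb a site of 14 lists at chr2R:9543384-9545284 was nearest to the start of CG1888.

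nSyb (FBgn0013342, chr3L:1630348-1637752, minus strand, 7.41 kb) had no region of any list within 1 kb, at either threshold. Its gene body and flanks held 6 Exd-Hox octamers, 0.64 per kb, more per kb than any of the other 7 genes. Within 5 kb, 9 lists had regions: Dfd, Scr, Abd-A and Abd-B with Hth, Scr, Abd-A and Abd-B without, Exd+Hth and Hth. They fell at chr3L:1628117-1629268, 65 bp from the start of CG13928, and at chr3L:1639117-1639889, 236 bp from that of Mettl2. In having no region within 1 kb in any list nSyb was like 4658 other protein-coding genes, and CG7191 (7406 bp) and CG7236 (7418 bp) were closest to it in length.

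ChAT (FBgn0000303, chr3R:18705501-18732344, plus strand, 26.8 kb) was reached in 6 Hox lists with Hth and 0 without. VAChT, the vesicular acetylcholine transporter gene, shares the ChAT start and lies inside it, as do CG34283, CG7714 and CG7715. Lab+Hth had 5 regions in the gene, and Pb+Hth, Dfd+Hth, Scr+Hth, Antp+Hth and Abd-B+Hth had 1 each. Exd+Hth had 3, and Hth by itself and all 8 Hox lists without Hth had 0, also within 5 kb. All 5 sites lay in introns, and none was nearest to the start of ChAT.

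The 7 lists met at 1 site, chr3R:18723502-18724220, which was 18.3 kb behind the start and 1189 bp from that of CG34283. The regions there were 719 bp wide for Lab+Hth, 528 bp for Pb+Hth, 546 bp for Dfd+Hth, 516 bp for Scr+Hth, 549 bp for Antp+Hth and 324 bp for Abd-B+Hth, and 306 bp for Exd+Hth. At q 1e-10 it remained in Lab+Hth, Pb+Hth and Dfd+Hth. This is the stretch printed above with 2 Hth cores and no Exd-Hox octamer.

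The other 4 ChAT sites belonged to Lab+Hth, 2 of them together with Exd+Hth. The Lab+Hth regions were 261 bp wide at chr3R:18716188-18716448, 551 bp at chr3R:18720463-18721013, 220 bp at chr3R:18721284-18721503 and 471 bp at chr3R:18727176-18727646. The second and the last of these overlapped Exd+Hth regions of 348 bp and 372 bp and were also in the q 1e-10 list. Of the 8 Exd-Hox octamers within 1 kb of ChAT, 3 lay in a site, all in Lab+Hth regions: 2 in the second and 1 in the first. All 3 were TGATTGAT. In the lists as a whole, TGATTGAT stood in 15.1% of Lab+Hth regions and 5.72% of Lab regions, counted over whole regions.

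**Figure D4:**
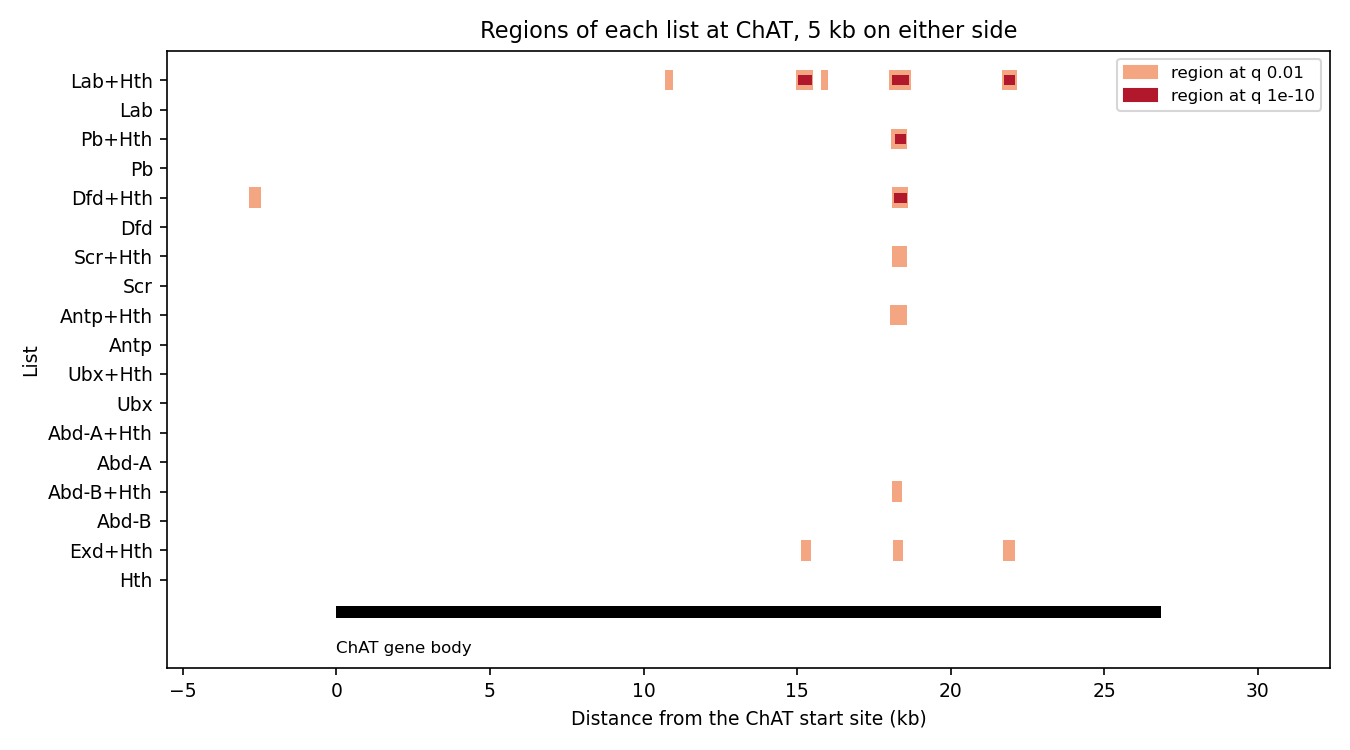
Regions of each list at ChAT and 5 kb to either side, by distance from its start site (kb), with light bars for q 0.01 and dark bars for q 1e-10 and each list with Hth above the same protein's list without. The rows of the 8 Hox lists without Hth and of Hth are empty, 7 rows have a bar at 18.3 kb, and Lab+Hth has 5 bars.

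A total of 245 protein-coding genes (1.76%) had at least as many Lab+Hth regions within 1 kb as ChAT, and 4 of them had no Lab region: ChAT, CG2528, nkd and ttv. Among the 869 genes with Hox regions only with Hth, 2 were reached by at least 6 Hox proteins, ChAT and kek2. These neighbours in pattern were found after the values were seen and are given as a description.

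Rdl (FBgn0004244, chr3L:9145838-9182149, minus strand, 36.3 kb) had only 1 region over the 18 lists, that of Lab+Hth, 319 bp wide at chr3L:9149746-9150064 in its 3′ untranslated region. It was not in the q 1e-10 list, held no Exd-Hox octamer, and nothing was added within 5 kb. The same pattern, Lab+Hth alone, was held by 21 other genes. The closest to Rdl in length were CG34384 (41032 bp) and Fife (56276 bp), which encodes another active zone protein.

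Counting sites per length gave a different order, with 5 of the 8 genes (Gad1, Syt1, para, Rdl and nSyb) below the median of their decile. Beside a median of 1.22 sites per 10 kb among genes of decile 10, ChAT had 1.73, brp 1.26, Gad1 1.2, Syt1 0.67, para 0.50 and Rdl 0.26. Beside a median of 1.73 in decile 9, elav had 3.13 and nSyb 0.00. Over the 8 genes and 1 kb on either side there were 75 Exd-Hox octamers, of which 10 lay in a site, 7 at elav and 3 at ChAT. At the other 6 genes 0 of 59 did. The upstream Syt1 site ran out beyond 1 kb, and there it held 2 Exd-Hox octamers that are outside this count.

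Other neuronal genes were counted in 6 lists by role, chosen with earlier results of these data known. Leaving out the 8 genes, 63 were matched. Of these, 40 (63.5%) had a Hox region within 1 kb with Hth and 28 (44.4%) without, against 61.1% and 56.5% of all protein-coding genes. Exd+Hth reached 26 (41.3%) and Hth 12 (19.0%), against 51.1% and 29.6%. Hox regions only with Hth were found at 12 (19.0%), against 6.23% of all genes and 6.06% of those in the 2 longest deciles. Most of these 12 rest on Dfd+Hth, the largest list (12050 regions, against 8448 for Dfd). It was the only Hox list at onecut, Snap25, nwk, Shab, Shal, ple, Tdc2 and GABA-B-R1. The rest were Rbp (Pb+Hth), Fife and VAChT (Lab+Hth) and Dop1R1 (Abd-B+Hth). The 63 genes too are long, with a median of 17.7 kb, and were reached by a median of 2 lists. Lab+Hth, which reached 6 of the 8 genes, reached 8 of the 63 (12.7%), and Lab reached 7 (11.1%). The 63 include VAChT, which lies inside ChAT and whose only region is a Lab+Hth region also counted for ChAT. VAChT is thus among the 40, the 12 and the 8 of 63 reached by Lab+Hth.

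By role, with the 8 genes left out, Hox regions were found with Hth at 3 and without Hth at 2 of 6 RNA-binding and transcriptional regulators. There pros, a homeodomain regulator of neuroblast daughters, was in all 18 lists and Rbp9, an elav relative, in 11 and onecut in 2, while fne, another elav relative, scrt and nerfin-1 were in 0. Among 11 genes for synaptic vesicles and fusion it was 7 with Hth and 6 without. Syx1A, the syntaxin partner of nSyb, and shi, dynamin, were in 16 lists each and Csp, a vesicle chaperone, and Rop, which binds syntaxin, in 12 each, whereas Syt7, stnB and Syt4 were in 0. Among 8 genes listed here under the active zone, a loose grouping, it was 5 with Hth and 2 without. There unc-13, which primes vesicles, was in 13 lists, Liprin-alpha in 12 and nwk in 2, and cac, the presynaptic calcium channel, Rim and unc-104 in 0.

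Of 10 voltage-gated channels and their subunits other than para, 6 were reached with Hth and 4 without. The potassium channel genes sei and eag were in 12 and 11 lists and Ca-alpha1T in 10, whereas slo, Ca-alpha1D and Shaw were in 0. Of 9 genes for making and carrying transmitters, 6 were reached with Hth and 3 without. Ddc, which makes dopamine and serotonin, was in 5 lists, SerT, the serotonin transporter, in 4 and DAT, the dopamine transporter, in 3. The vesicular carriers Vmat, VGlut and VGAT were in 0. Another such carrier, VAChT, was in 1 list, through the Lab+Hth region it shares with ChAT. Of 19 receptors, 13 were reached with Hth and 11 without. Nmdar1 and nAChRalpha6 were in 18 lists each and Nmdar2, nAChRalpha5 and nAChRalpha7 in 12 each, whereas mGluR, nAChRbeta1 and nAChRbeta2 were in 0.

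**Figure D5:**
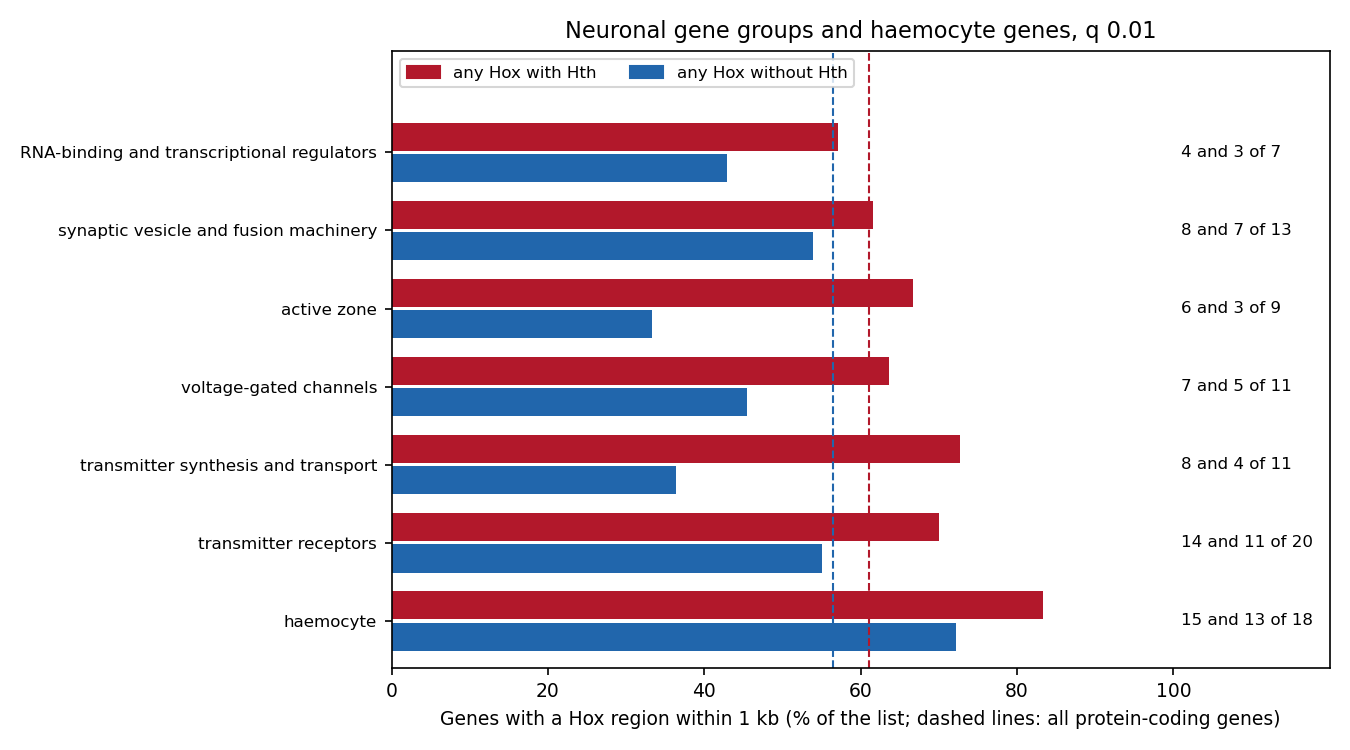
Share of genes (%) in 6 neuronal groups, the 8 genes included, and in a haemocyte list with a Hox region within 1 kb at q 0.01, with Hth (red, upper bars) and without (blue, lower bars), counts at the right in the same order and dashed lines at the shares of all protein-coding genes, 61.1% and 56.5%. All 7 red bars are longer than their blue bars, and the haemocyte bars are the longest pair.

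For comparison, 18 genes of haemocytes, the cell type that Kc167 cells resemble, were reached by a median of 15 lists. A Hox region was found with Hth at 15 of them (83.3%) and without at 13 (72.2%), and Hth reached 13. Their median length was 14.7 kb, near that of Gad1. Among them srp, Pvr and ush were in all 18 lists, whereas NimC1, Sr-CI and He were in 0.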

How the data were processed

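The authors mapped reads to dm6 by Bowtie 1.2.2, discarding reads with several matches, and ran MACS2 2.1.1.20160309 on each replicate with its input, at q 0.01 and at q 1e-10 (versions from the submitters' processing notes). Regions on exons that the plasmids carry were taken out, and the deposited list of a group is the union of overlapping regions seen in both replicates. Column 5, the score, is 0 throughout. The weaker library limits a list, and depth is not given in it. No region ended beyond its arm in the Release 6 genome used here.

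Groups came from the labels. Gene bodies were those of Ensembl release 115 (BDGP6.54). A region was counted at a gene from 1 bp of overlap with the body extended by 1 kb, or 5 kb. The lists of 17 groups were used at q 1e-10. Sites were merged over 18 lists, and 200 bp windows were searched for motif words on either strand. The main alternatives were 5 kb, gene bodies alone, q 1e-10, region centres, regions nearest to the gene's own start, coding spans with 1 kb, and leaving out each Hox protein.

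The 8 genes and the gene lists were chosen with earlier results of these data known, so no test was made. Genes named from the lists were the 3 in most lists and the 3 longest in none, and genes tied for a place in most lists are named too. In the haemocyte list only 3 of 6 genes in all 18 lists are named. Of the list genes, 1 symbol (Trh) was ambiguous and left out. The functions were tested on simulated regions. Python 3.11.15, numpy 2.4.6 and matplotlib were used.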

Additional observations from a re-analysis of the deposited data

How the results depend on the processing

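Of 68 alternative values, 50 stayed within 1.5 times the value given. Leaving out each Hox protein in turn moved none beyond that: genes with a Hox region stayed at 6 or 7 of 8 with Hth and 4 or 5 without, and pairs between 19 and 24 with Hth and between 13 and 16 without. At q 1e-10, 4 genes had a Hox region with Hth and 2 without, 0 had an Hth region (Exd+Hth not analysed there), pairs fell to 10 and 5, and sites to 8. Keeping only regions nearest to the gene's own start left 3 genes with Hth, 2 without, 3 with Hth or Exd, 12 and 11 pairs, and 7 sites. Within 5 kb there were 45 and 35 pairs. In gene bodies alone 3 genes had a Hox region without Hth. Counted around coding spans with 1 kb, 2 genes had one without Hth, with 8 pairs and 13 sites. In each of these settings the count with Hth was at least that without. No paired analysis was possible because each list combines both replicates, and for the same reason no replicate could be left out. Region lists without heights or depth do not show how weak a missing region was, and the authors' threshold decides whether it counts.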
